A study of Mus musculus with 37 samples.

Results

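The 36 genes described here encode matrix proteins other than collagens, the enzymes that crosslink matrix, and the proteases that cut it with their inhibitors. They were listed by name in 5 classes: glycoproteins, crosslinkers, proteoglycans, laminins, and proteases and inhibitors. A gene was read from a probe set annotated to its symbol alone, and 34 of the 36 had one, out of 19937 genes measured in that way. Fbn1 had no named probe set in the annotation used, and Loxl2 shared its only one with a second symbol. The tested genes comprised 14 glycoproteins, 2 crosslinkers (Lox and Loxl1), 7 proteoglycans, 4 laminins, and 7 proteases and inhibitors, and all 34 passed the filter on low values.

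Total RNA of mouse mammary glands was hybridised to 37 whole-transcript arrays. The mice were of FVB background after at least 7 generations of backcrossing and were either PTP1B wild type (WT) or PTP1B knockout (KO), in which Ptpn1, the gene of this tyrosine phosphatase, is lost. Nulliparous females were sampled in oestrus (P0), judged by a plug after a night with a male. Females mated at 12 weeks of age were sampled on pregnancy day 3, 7, 10 or 15 (P3, P7, P10 and P15), and no treatment was given. In order of stage there were 4, 3, 4, 3 and 4 arrays of WT and 4, 3, 5, 3 and 4 of KO. The labels name no tissue-restricted deletion, so loss was in the whole animal as far as they tell, and do not say whether each array was a separate animal, so p-values measure the spread between these arrays alone. By its title, the series asks what loss of PTP1B does to the growth and maturation of the gland.

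The mammary epithelium lies on a basement membrane of laminins, nidogens, the proteoglycan perlecan and collagen IV, and outside it sits a stroma in which fibroblasts lay down fibronectin, elastic fibres, small leucine-rich proteoglycans and fibrillar collagen. Matricellular glycoproteins such as thrombospondins, tenascins and periostin modulate how cells attach to this matrix. Lysyl oxidases crosslink collagen and elastin, metalloproteinases cut matrix, and TIMPs inhibit them. In pregnancy the ducts branch and alveoli grow into the fat pad, so epithelium takes up a growing part of the gland.

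Values are log2 intensities, and a difference is a log2 difference ± its SE. The words rose, fell and called are kept for a limma adjusted p below 0.05 after Benjamini-Hochberg adjustment over the 16865 genes tested. In a whole gland, fewer cells of a type and less RNA per cell cannot be told apart.

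The arrays had medians between 6.52 and 6.79. Ptpn1 read 7.90 to 9.06 in the 18 WT arrays and 5.36 to 6.49 in 18 of 19 KO arrays, while the array labelled KO P15 replicate 3 read 8.68, against its label. Scores of marker lists, means of log2 levels centred on each gene's mean, also set arrays apart. The skeletal muscle score was 5.10 in WT P0 replicate 4, 5.45 in KO P3 replicate 1 and 2.29 in KO P7 replicate 3. The lymphocyte score was 3.76 and 3.74 in KO P10 replicates 2 and 3, against -0.02 in replicate 1, and 1.0 in WT P7 replicate 1. These 7 arrays are called the arrays in doubt, and some of the results that rest on them are given with and without them. Differences of single genes from P0 are given with all arrays only. As a check of the tissue, the milk protein score ran from -2.26 to -0.24 in WT P0 and from 1.46 to 1.57 in WT P15.

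Across the 10 groups the matrix genes were mostly high in nulliparous KO glands and low in KO glands at day 15. Of the 34 genes, 14 had their highest group mean in KO P0 and 19 their lowest in KO P15. Fmod, which encodes the small leucine-rich proteoglycan fibromodulin, spanned the most, with group means from 6.57 in WT P3 to 9.48 in WT P15. Sparc, a collagen-binding matricellular glycoprotein, spanned the least, from 12.72 in KO P3 to 13 in WT P7. The F test over the 5 stages called 23 of the 34 genes in WT (66.0% of all genes tested) and 32 in KO (64.3% of all genes tested).

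**Figure D1:**
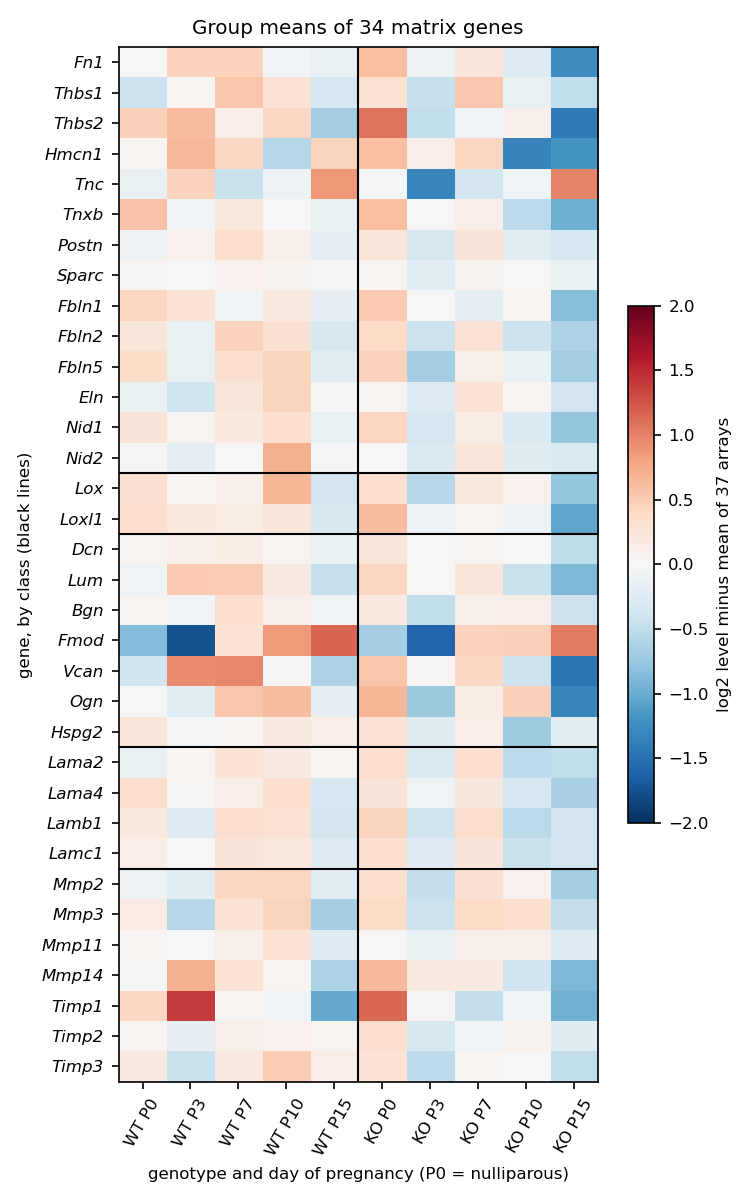
Group means of the 34 genes minus each gene's mean over the 37 arrays (log2, colour), with genes in rows by class and the 10 groups in columns. The KO P15 column holds the lowest mean of 19 genes and the KO P0 column the highest mean of 14, while the Fmod row is lowest at P3 and highest at P15 in both genotypes.

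The genotype difference changed sign between the nulliparous gland and day 3. At P0, 31 of the 34 genes had a higher mean in KO, with a median difference of 0.19, and at P3 30 of them had a lower mean, with a median of -0.30. The median over all genes tested was -0.01 at both stages. The median of the 34 genes was -0.08 at P7, -0.43 at P10 and -0.35 at P15. KO minus WT was above 0 at P0 and below 0 at P3 for 27 of the 34 genes (79.4%), against 32.6% of all genes tested. It was above 0 at P0 and below 0 at all 4 later stages for 18 of them (52.9%), against 7.51% of all genes. These are counts of signs, to which no test was applied. They and the medians include the muscle-rich arrays in doubt. Of those, WT P0 replicate 4 was the lowest of its group for 17 of the 34 genes and KO P3 replicate 1 for 28. The signs and medians without these arrays are not given here. The genes were listed with earlier results of these data known, so setting them against all genes is not an independent check.

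Calls by genotype were few at first and many from day 10. Mmp14 rose at P0, the only gene of the 34 called there, where 1.70% of all genes were called, 1.27% higher and 0.421% lower. None was called at P3 or at P7, where 0.119% of all genes (0.113% lower) and 0.00593% were called. Before adjustment limma's p was below 0.05 for 13 of the 34 genes at P3, all lower in KO, against 7.10% of all genes. At P7 it was below 0.05 for 2 of the 34, both lower, against 2.63% of all genes. At P10 10 of the 34 fell, where 17.2% of all genes were called, 9.13% lower and 8.10% higher. At P15 9 fell, where 11.1% of all genes were called, 4.33% lower and 6.78% higher. No gene of the 34 rose in KO at P3, P7, P10 or P15.

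**Figure D2:**
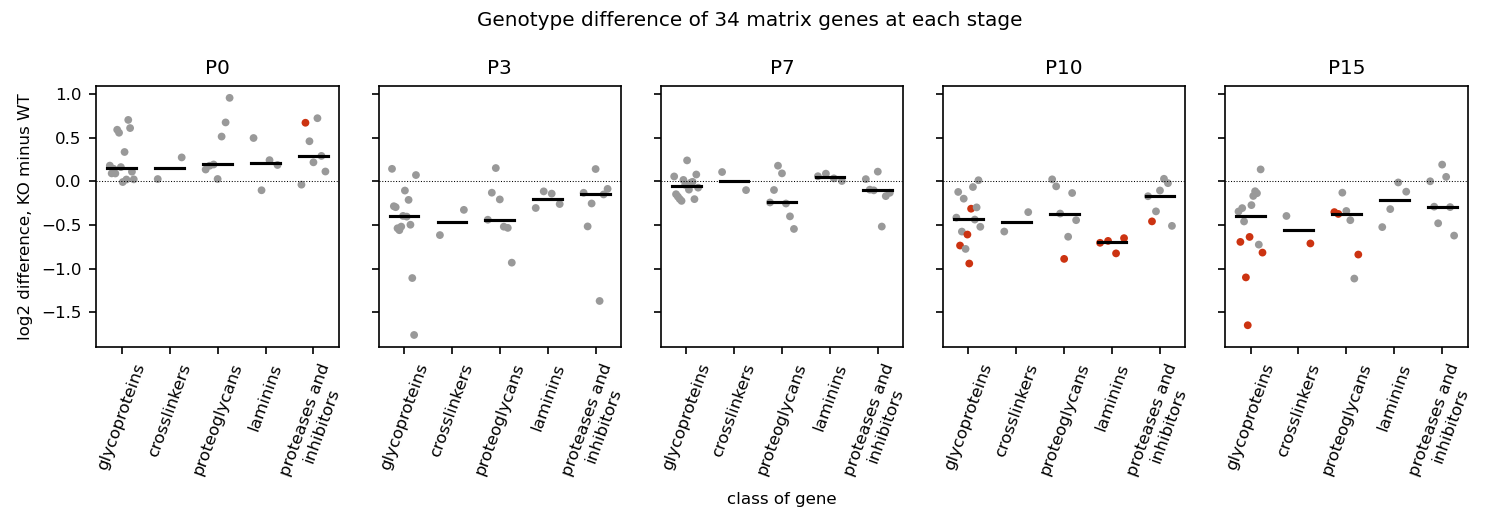
Log2 difference, KO minus WT, of each of the 34 genes at each stage, by class. Red points were called by limma at an adjusted p below 0.05, grey points were not, and black bars are class medians. The 4 laminins were called at P10 and none of them at P15, where the called genes were glycoproteins, proteoglycans and the crosslinker Loxl1.

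Outside P7 the class medians shared the sign of the difference more than its size. At P0 the class medians ran from 0.15 for glycoproteins and 0.15 for crosslinkers to 0.29 for proteases and inhibitors. At P3 they were -0.40 for glycoproteins, -0.47 for crosslinkers, -0.44 for proteoglycans, -0.20 for laminins and -0.15 for proteases and inhibitors. At P7 the laminins, at 0.05, and the crosslinkers, at 0.00, lay near 0, while proteoglycans had a median of -0.24. At P10 the laminins had the lowest median, -0.69, against -0.17 for proteases and inhibitors. At P15 the crosslinkers had the lowest, -0.55, against -0.22 for laminins. Differences between classes were not tested.

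In the nulliparous gland, Mmp14 (probe set 10415052), which encodes the membrane-bound metalloproteinase MT1-MMP that cuts collagen and activates MMP2, read 9.79, 10.05, 9.71 and 9.66 in WT. In KO it read 10.22, 10.80, 10.48 and 10.40. Every KO array lay above every WT array, and the difference was 0.67 ± 0.14 with an adjusted p of 0.00974 in limma. The call was kept without the arrays in doubt, at 0.62 with an adjusted p of 0.0421, and was lost without KO P0 replicate 2, at 0.56 with an adjusted p of 0.0544. Fitted on the 8 nulliparous arrays alone, the adjusted p was 0.28.

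The KO arrays at P0 also lay wholly above the WT arrays for Fn1, Postn, Lum and Vcan, so that 5 of the 34 genes did not overlap, against 3.23% of all genes with KO above WT. Vcan, which encodes the large hyaluronan-binding proteoglycan versican, differed by 0.96 ± 0.27 with an adjusted p of 0.0581. Postn, which encodes periostin, differed by 0.34 ± 0.09 with an adjusted p of 0.0577. Neither passed the threshold. WT P0 replicate 2 stood apart from its group: it was the highest of the 4 arrays for 15 genes and the lowest for 12. Tnc, the gene of tenascin-C, read 11.16 there against 7.32, 7.66 and 7.93 in the other WT arrays. Its epithelial score was 0.49, against -0.81 to -0.41 in the other 3. Without it 6 of the 34 genes were called at P0, all higher, and without KO P0 replicate 2 none was. The shares of all genes called in these fits are not given here. The epithelial score of the KO P0 arrays ran from -0.27 to 0.41. The macrophage score ran from 0.25 to 0.88 in KO P0 and -0.63 to 0.46 in WT P0, with none of its 11 markers called, and the fibroblast score from 0.13 to 0.71 and -0.17 to 0.53, with 1 of 10 markers higher. The part of these cells in the differences was not tested beyond the fits with covariates.

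From the nulliparous gland to day 3 all 34 genes had a lower mean in KO, with a median of -0.67, and 22 of them had one in WT, with a median of -0.13. The genotype difference in this response, (KO P3 minus KO P0) minus (WT P3 minus WT P0), was below 0 for 33 of the 34 genes, with a median of -0.57 against 0.00 for all genes tested. Of the 34 genes 5 passed the test, all lower, where 1.97% of all genes passed, 1.67% lower and 0.302% higher: Mmp14, Postn, Vcan, Thbs2 and Fn1. By class these are 3 adhesive or matricellular glycoproteins, 1 proteoglycan and 1 metalloproteinase. The response uses the same P0 and P3 arrays as the genotype differences above and is not independent of them.

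The windows upstream of the start sites of the 4 genes of this group with an entry in RefSeq's promoter table (GRCm38.p6) follow, since these genes passed the test of the response. Fmod is added as the gene that rose from P0 to P15 in both genotypes. Each run is the 250 bases before the annotated start, 5′ to 3′ on the gene's strand, and capitals mark matches to 4 motifs searched on both strands: TGANTCA for AP-1, GGAATG for TEAD, GGGCGG for SP1 and TATAAA for the TATA box. In Mmp14 both SP1 matches are adjacent and their capitals run together.
Thbs2: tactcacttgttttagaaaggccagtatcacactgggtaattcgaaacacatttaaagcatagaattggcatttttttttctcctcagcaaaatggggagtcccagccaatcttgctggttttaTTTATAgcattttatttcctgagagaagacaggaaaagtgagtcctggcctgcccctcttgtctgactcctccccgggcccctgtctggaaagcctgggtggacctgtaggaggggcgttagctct
Postn: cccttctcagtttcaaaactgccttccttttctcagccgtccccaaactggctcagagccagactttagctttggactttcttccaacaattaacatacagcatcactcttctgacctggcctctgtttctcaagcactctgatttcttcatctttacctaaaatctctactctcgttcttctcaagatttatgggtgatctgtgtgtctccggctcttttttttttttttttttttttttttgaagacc
Vcan: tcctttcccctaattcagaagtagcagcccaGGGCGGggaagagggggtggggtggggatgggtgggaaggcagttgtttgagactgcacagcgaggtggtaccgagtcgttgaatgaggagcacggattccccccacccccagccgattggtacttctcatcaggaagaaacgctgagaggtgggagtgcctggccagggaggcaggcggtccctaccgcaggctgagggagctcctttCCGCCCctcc
Mmp14: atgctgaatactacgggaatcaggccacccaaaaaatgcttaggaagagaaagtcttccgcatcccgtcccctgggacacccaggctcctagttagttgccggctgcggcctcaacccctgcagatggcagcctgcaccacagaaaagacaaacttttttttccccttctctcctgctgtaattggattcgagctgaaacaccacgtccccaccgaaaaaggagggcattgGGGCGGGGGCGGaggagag
Fmod: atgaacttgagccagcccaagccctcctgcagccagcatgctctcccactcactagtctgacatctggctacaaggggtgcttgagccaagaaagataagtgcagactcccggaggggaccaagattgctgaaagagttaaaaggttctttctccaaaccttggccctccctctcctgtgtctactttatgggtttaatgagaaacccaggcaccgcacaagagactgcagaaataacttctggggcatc

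The windows lie at chr17:14694263-14694512 on the minus strand for Thbs2, chr3:54359017-54359266 on the plus strand for Postn, chr13:89742513-89742762 on the minus strand for Vcan, chr14:54431348-54431597 on the plus strand for Mmp14 and chr1:134037004-134037253 on the plus strand for Fmod. The SP1 letters occurred in Vcan, with a match that starts 219 bases and one that starts 10 bases before the start site, and in Mmp14, at 19 and 13 bases. Thbs2 held the TATA letters on the opposite strand 126 bases before the start. No letters of the 4 motifs were in the windows of Postn and Fmod printed here, while another Postn window in the table, which is not printed, held the TATA letters. Of the 32851 windows in the table, 32.7% held the SP1 letters, 12.4% the TATA letters, 12.6% the TEAD letters and 6.75% the AP-1 letters. Of the 36 genes, 24 had 28 such windows, of which 16 held the SP1 letters, 6 the TATA letters, 4 the TEAD letters and 2, those of Mmp3 and Tnxb, the AP-1 letters. A match is a description of the letters and not of binding.

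With all arrays, Mmp14 was called in opposite directions in the 2 genotypes. In WT it rose from P0 to P3, to 10.20, 10.65 and 10.74, by 0.73 ± 0.15 with an adjusted p of 0.001 in limma. In KO it fell to 9.64, 10.29 and 10.11, by 0.46 ± 0.15 with an adjusted p of 0.0272. The 9.64 belongs to KO P3 replicate 1, the muscle-rich array in doubt, and the 10.29 lay above the lowest KO P0 array, at 10.22. The fall in KO without the array in doubt is not given here. The genotype difference in the response was -1.19 ± 0.21 with an adjusted p of 0.00195, and it stayed called with each array left out in turn and without the arrays in doubt, where it was -0.95 with an adjusted p of 0.0379.

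Postn (probe set 10492021) encodes periostin, a matricellular protein that binds collagen and fibronectin. Its WT arrays read 12.18, 12.07, 12 and 12.11 at P0 and 12.07, 12.46 and 12.28 at P3. The KO arrays read 12.42, 12.50, 12.54 and 12.25 at P0 and 11.65, 12.12 and 11.83 at P3, so each KO array at P3 lay below each at P0. The genotype difference in the response was -0.74 ± 0.14 with an adjusted p of 0.00436 in limma, and -0.64 with an adjusted p of 0.046 without the arrays in doubt.

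Vcan (probe set 10410931) read 9.44, 10.03, 9.55 and 9.11 in WT P0 and 10.56, 10.85 and 11.24 in WT P3. This was a rise of 1.35 ± 0.29, the largest of the 34 genes at that step, with an adjusted p of 0.00183. In KO it read 10.25, 10.56, 10.45 and 10.70 at P0 and 10.17, 10.50 and 9.18 at P3, and that change was not called, at -0.54 ± 0.29 with an adjusted p of 0.206. The genotype difference in the response was -1.89 ± 0.41 with an adjusted p of 0.0114. The KO P3 arrays spread widely, and without KO P3 replicate 3 the difference was -1.51 with an adjusted p of 0.0655. Without WT P3 replicate 3 it was -1.71 with an adjusted p of 0.063.

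Thbs2 (probe set 10447951) encodes thrombospondin-2, which restrains angiogenesis and clears MMP2. In WT it read 10.86, 10.75, 11.06 and 9.84 at P0 and 10.35, 10.99 and 10.96 at P3, values that overlap. In KO it fell from 11.84, 10.98, 11.22 and 10.91 to 9.19, 10.14 and 9.64, by 1.58 ± 0.27 with an adjusted p of 0.000259. The 9.19 belongs to KO P3 replicate 1, the muscle-rich array, and the fall without it is not given here. The genotype difference in the response was -1.72 ± 0.38 with an adjusted p of 0.0126, and -1.23 with an adjusted p of 0.106 without the arrays in doubt. Without WT P3 replicate 3 the adjusted p was 0.0584.

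Fn1 (probe set 10355403) encodes fibronectin, the adhesive glycoprotein bound by integrins. It read 12.27, 11.75, 12.37 and 11.91 in WT P0 and 12.34, 12.59 and 12.67 in WT P3. In KO it read 12.54, 12.93, 12.71 and 12.48 at P0 and 11.39, 12.49 and 12.04 at P3, where it fell by 0.69 ± 0.22 with an adjusted p of 0.0239. The 11.39 belongs to KO P3 replicate 1, and the 12.49 lay above the lowest KO P0 array, at 12.48. The fall in KO without that replicate is not given here. The genotype difference in the response was -1.15 ± 0.31 with an adjusted p of 0.0435. It was the least firm of the 5: the call was lost with any of 16 arrays left out, and without KO P3 replicate 1, the muscle-rich array, it was -0.86 with an adjusted p of 0.109.

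KO P3 replicate 1 was the lowest array of its group for 28 of the 34 genes. Of the 5 calls, 3 remained without the arrays in doubt (Postn, Vcan and Mmp14), and 2 (Postn and Mmp14) with the lymphocyte and muscle scores as covariates. Leaving out WT P0 replicate 2 gave 9 calls and leaving out KO P3 replicate 2 gave 10, while there were 2 without WT P3 replicate 3 and 3 without KO P3 replicate 3. Fitted on the 4 groups alone none was called, with adjusted p from 0.16 to 0.258 for the 5 genes. For these fits the share of all genes called is not given here. Over all arrays limma's p before adjustment was below 0.05 for 19 of the 34 genes, against 19.2% of all genes. The mitosis score ran from -1.86 to -0.30 in WT P0, 0.37 to 1.31 in WT P3, -0.90 to 0.93 in KO P0 and -1.97 to 0.97 in KO P3, and 1 of its 9 genes was called in this response, lower. Of the fibroblast markers 2 of 10 were called lower in this response, with a median of -0.46, and of the macrophage markers none of 11, with a median of -1.02. At P3 the macrophage score ran from -1.04 to 0.05 in KO and -0.35 to 0.14 in WT, and the fibroblast score from -0.73 to 0.33 and -0.05 to 0.42, with 1 fibroblast marker lower. The part of these lists in the differences was not tested.

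**Figure D3:**
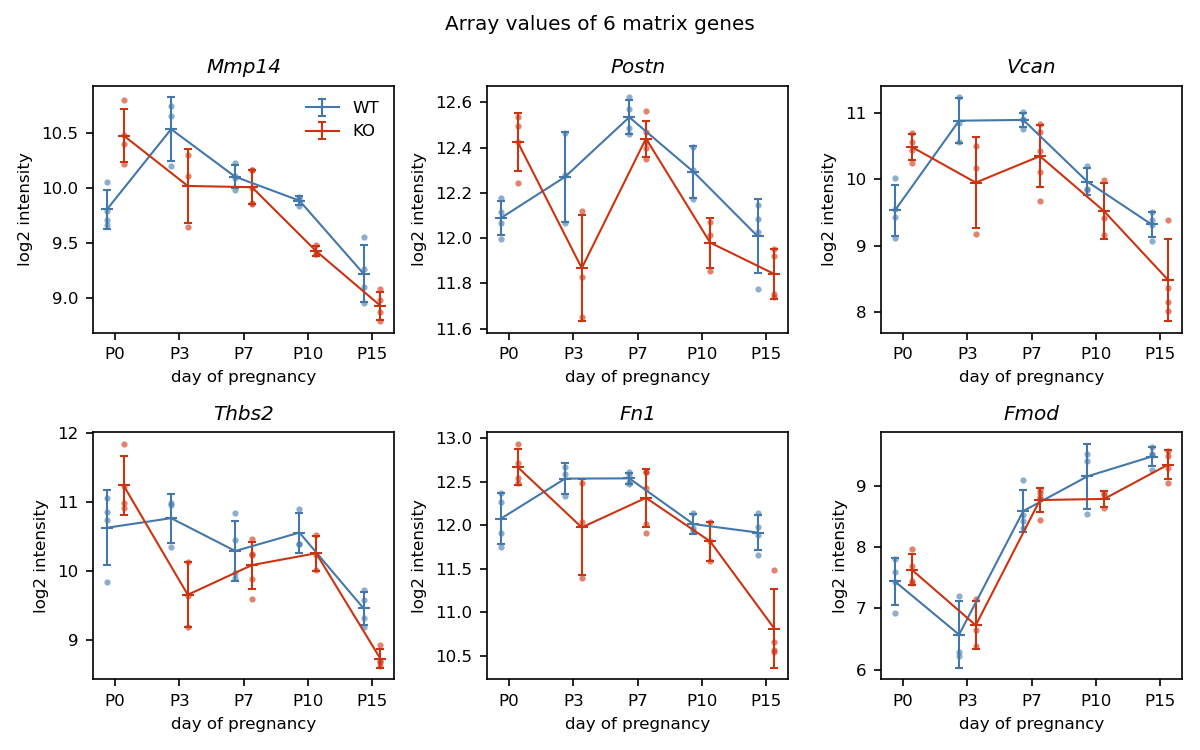
Log2 intensity of 6 genes in every array by day of pregnancy, WT in blue and KO in red. Points are arrays, dashes and lines are group means and bars are ± 1 SD (n = 3 to 5). For Mmp14, Postn, Vcan, Thbs2 and Fn1 the KO mean lies above the WT mean at P0 and below it at P3, and Fmod rises in both genotypes.

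Day 3 itself gave no called gene among the 34, although 9 of them had every KO array below every WT array, against 5.08% of all genes: Thbs2, Hmcn1, Tnc, Sparc, Nid1, Bgn, Vcan, Lamc1 and Timp1. Tnc differed most, reading 8.53, 9.08 and 9.74 in WT and 7.78, 7.69 and 6.6 in KO, a difference of -1.76 ± 0.52 with an adjusted p of 0.282. Timp1, which encodes a secreted inhibitor of metalloproteinases, read 9.22, 9.14 and 10.00 in WT and 8.51, 8.53 and 7.21 in KO, a difference of -1.37 ± 0.47 with an adjusted p of 0.453. Without KO P3 replicate 2, 4 of the 34 genes were called, all lower, and without WT P0 replicate 2 there was 1. With epithelial and adipocyte scores as covariates 1 was called, lower. For these fits the share of all genes called is not given here.

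At day 7 the genotypes were closest. No gene of the 34 had WT and KO arrays that did not overlap. This is near the shares of all genes, 1.04% with KO below WT and 0.747% with KO above. The differences of the 34 genes ran from -0.55 for Vcan to 0.24 for Nid2. Vcan read 10.75, 11.02, 10.91 and 10.89 in WT and 10.42, 9.68, 10.11, 10.71 and 10.83 in KO, where replicate 5 overlapped the WT arrays. The 4 laminins differed by 0.00 to 0.09.

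At day 10 all 4 laminin chains fell in KO, as did both nidogens, perlecan (Hspg2), Fbln2, Postn and Mmp14. Of the 34 genes, 21 had every KO array below every WT array, against 14.6% of all genes. The KO group held the 2 lymphocyte-rich arrays. Without KO P10 replicate 2 6 of the 34 genes were called, and without KO P10 replicate 3 there were 7. Shares of all genes called with these arrays left out are not given here. None of the 10 was called with lymphocyte and muscle scores or with epithelial and adipocyte scores as covariates, or in the 6 arrays of this stage alone, which include both lymphocyte-rich arrays. None was called either without the arrays in doubt, a fit that leaves 1 KO array at this stage.

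Lamb1 (probe set 10395163), the gene of the laminin β1 chain, read 10.44, 10.36 and 10.45 in WT P10 and 10.11, 9.23 and 9.44 in KO P10. All KO arrays lay below the WT arrays, and the lymphocyte-rich replicates 2 and 3 lay lowest. The difference was -0.83 ± 0.14 with an adjusted p of 0.000491 in limma, and -0.31 with an adjusted p of 1.0 without the arrays in doubt, where replicate 1 was the single KO array left and was assumed to vary like the other groups.

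Lamc1 (probe set 10358816), the gene of the γ1 chain that most laminin trimers share, read 10.98, 10.82 and 11.05 in WT and 10.54, 10.16 and 10.20 in KO. It fell by 0.65 ± 0.14 with an adjusted p of 0.00226, and differed by -0.41 without the arrays in doubt. Lama4 (probe set 10362538) encodes the α4 chain of vessel and fat cell basement membranes. It read 10.68, 10.42 and 10.53 in WT and 10.25, 9.67 and 9.67 in KO and fell by 0.68 ± 0.15 with an adjusted p of 0.00252, against -0.30 without the arrays in doubt.

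Lama2 (probe set 10368409) encodes the α2 chain known from muscle and nerve basement membranes. It read 10.22, 10.29 and 10.40 in WT and 9.99, 9.35 and 9.46 in KO and fell by 0.70 ± 0.22 with an adjusted p of 0.0255, against -0.31 without the arrays in doubt. Among the laminins Lama2 also lost its call with any 1 array of either P10 group left out other than KO replicate 1.

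Nid2 (probe set 10412921) and Nid1 (probe set 10403584) encode the nidogens, which link laminin to collagen IV. Nid2 read 9.44, 9.23 and 9.47 in WT and 8.91, 8.07 and 8.33 in KO and fell by 0.94 ± 0.18, the largest of the 34 at this stage, with an adjusted p of 0.000915. Nid1 read 11.74, 11.66 and 11.83 in WT and 11.45, 10.95 and 11.01 in KO and fell by 0.61 ± 0.15 with an adjusted p of 0.00596. Without the arrays in doubt the differences were -0.47 and -0.29, and without KO P10 replicate 2 Nid1 had an adjusted p of 0.0693.

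Hspg2 (probe set 10509280), the gene of perlecan, the heparan sulphate proteoglycan of basement membranes, read 10.19, 9.98 and 10.32 in WT. In KO it read 9.54, 9.24 and 9.04. It fell by 0.89 ± 0.17 with an adjusted p of 0.000737, and the difference without the arrays in doubt was -0.62, the largest left among the 10 called genes.

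Fbln2 (probe set 10540085) encodes fibulin-2, which binds nidogen, perlecan and elastic fibres. It read 10.24, 10.40 and 10.41 in WT and 9.87, 9.56 and 9.42 in KO and fell by 0.74 ± 0.17 with an adjusted p of 0.00338, against -0.48 without the arrays in doubt. Postn fell by 0.31 ± 0.11 with an adjusted p of 0.0445, from 12.30, 12.40 and 12.17 to 12.07, 11.86 and 12.01, and its call was lost without WT P10 replicate 1 or 2, KO P10 replicate 2 or 3, or WT P7 replicate 2. Without the arrays in doubt the difference of Postn was -0.22. Mmp14 read 9.90, 9.91 and 9.83 in WT and 9.40, 9.47 and 9.39 in KO, and here the 3 KO arrays lay together. It fell by 0.46 ± 0.16 with an adjusted p of 0.0406. The call was lost without any 1 of the 6 arrays of this stage, and the difference without the arrays in doubt was -0.48, with an adjusted p of 0.983.

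Lists of cell markers were also read at this stage, where 17.2% of all genes were called, 9.13% lower and 8.10% higher. A count of 2 in a list of 10 to 12 markers is near the share called in either direction. All 9 B lymphocyte and all 8 T lymphocyte markers rose in KO, and their scores ran from -0.35 to 4.19 and from 0.30 to 3.41 in KO against -0.39 to -0.31 and -0.20 to -0.09 in WT. Of the endothelial markers 5 of 10 fell, with a score of -0.36 to 0.30 in KO and 0.45 to 0.50 in WT. Adipocyte markers fell in 3 of 11 and epithelial markers in 2 of 12, with scores of -0.59 to 0.28 and -0.62 to -0.29 in KO and 0.13 to 0.48 and -0.56 to 0.19 in WT. Fibroblast markers fell in 2 of 10, with a score of 0.03 to 0.18 in KO and 0.18 to 0.21 in WT. Macrophage markers rose in 2 of 11, with a score of 0.41 to 0.74 in KO and 0.12 to 0.28 in WT, which do not overlap. In KO replicate 1 the B lymphocyte score was -0.35 and the T lymphocyte score 0.30. The part of these cells in the matrix gene differences was not tested beyond the fits with covariates.

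At day 15 9 of the 34 genes fell in KO: the glycoproteins Fn1, Hmcn1, Tnxb, Fbln1 and Nid1, the crosslinker Loxl1, and the proteoglycans Dcn, Bgn and Vcan. All KO arrays lay below all WT arrays for 18 of the 34 genes, against 8.49% of all genes. None of the 4 laminins and none of the 7 proteases and inhibitors was called, and the laminin differences ran from -0.52 for Lama2 to -0.01 for Lamb1. Centring each array on its median left 5 of the 9 calls and gave a median of all genes of 0.10, against 0.01 before. Array weights called 20 of the 34 and the 8 arrays of the stage alone 18, all lower. The shares of all genes called in these fits are not given here, so the counts cannot be set against the 9.

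Fn1 read 11.66, 11.98, 11.89 and 12.13 in WT P15 and 10.54, 10.56, 11.49 and 10.66 in KO P15. The 11.49 belongs to the array labelled KO replicate 3, whose Ptpn1 level was that of WT, and the other 3 KO arrays lay between 10.54 and 10.66. The difference was -1.10 ± 0.20 with an adjusted p of 0.000514 in limma, and -1.32 with an adjusted p of 8.91e-05 without the arrays in doubt. It stayed called under the 11 alternatives tried and with each array left out in turn. Among the 11, the second brightest probe set is hardly a separate trial here, since Fn1 and Nid1 have 1 probe set each.

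Nid1 fell as well, from 11.31, 11.20, 11.22 and 11.34 in WT to 10.79, 10.55, 10.72 and 10.46 in KO, by 0.64 ± 0.13 with an adjusted p of 0.00171. Its call at P15 was kept under the same alternatives and left-out arrays, and it was the only gene of the 34 called at both P10 and P15, where the called sets numbered 10 and 9 (10% and 11.1% of each).

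Hmcn1 (probe set 10358577) encodes hemicentin-1, a very large protein of basement membranes and tissue junctions. It read 9.41, 9.54, 9.97 and 9.93 in WT and 7.76, 7.68, 8.76 and 8.04 in KO, a difference of -1.65 ± 0.27 with an adjusted p of 0.00019. This is the largest genotype difference of the 34 at any stage other than that of Tnc at P3, but it is read from 1 of 77 probe sets, which differed in size. The brightest, which the rule takes, had the lowest difference of all 77, and their median was -0.62. Some others lay nearly as low, such as 10358581 at -1.62 and 10358583 at -1.50, while the highest lay at -0.27. With the second brightest the difference was -0.58 with an adjusted p of 0.208. With the mean of all 77, an alternative added after seeing the data, it was -0.68 ± 0.22 with an adjusted p of 0.0459. The direction was shared: all 77 probe sets lay below 0 at P3, P10 and P15 and above 0 at P0, while 44 lay below 0 at P7.

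**Figure D4:**
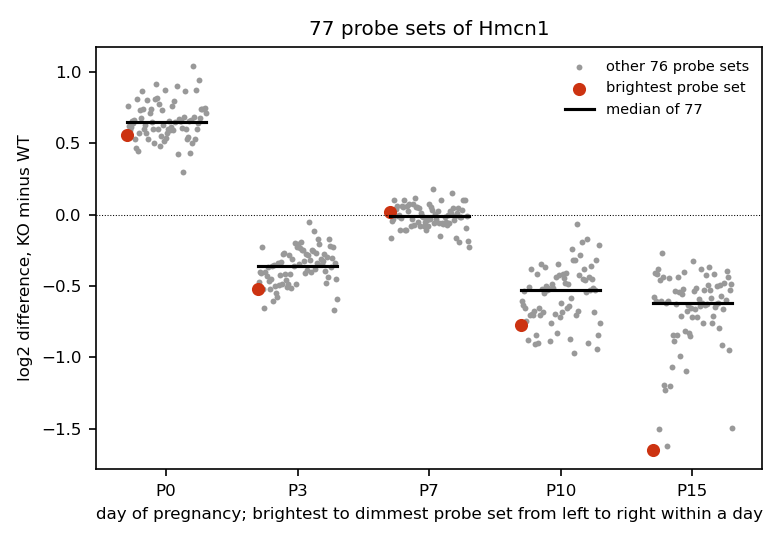
Log2 difference, KO minus WT, of the 77 probe sets of Hmcn1 at each stage, from the brightest on the left to the dimmest on the right within a day. The brightest probe set (red) lies at -1.65 at P15, the lowest of the 77, whose median (bar) is -0.62, and all 77 lie above 0 at P0.

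Loxl1 (probe set 10594066) encodes a lysyl oxidase that crosslinks elastin. It read 9.16, 9.28, 9.17 and 9.24 in WT and 8.51, 8.30, 8.87 and 8.32 in KO, and again the array labelled KO replicate 3 was the highest of the KO arrays. It fell by 0.71 ± 0.19 with an adjusted p of 0.0151. Lox, its relative, read 8.99, 9.20, 9.10 and 9.0 in WT and 8.64, 8.58, 8.88 and 8.60 in KO. These do not overlap, but the difference of -0.40 ± 0.25 was not called, with an adjusted p of 0.373.

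Among the proteoglycans, Dcn (probe set 10365974), the gene of decorin, which binds collagen fibrils, read 12.38, 12.43, 12.48 and 12.45 in WT and 12.14, 12.05, 12.21 and 11.86 in KO. Dcn fell by 0.37 ± 0.10 with an adjusted p of 0.0156. Bgn (probe set 10600169), the gene of the related biglycan, fell by 0.35 ± 0.11 with an adjusted p of 0.0417, from 11.35, 11.55, 11.64 and 11.68 to 11.18, 11.11, 11.34 and 11.17. Vcan read 9.07, 9.31, 9.39 and 9.50 in WT and 8.15, 8.37, 9.39 and 8.02 in KO, where the array labelled KO replicate 3 overlapped the WT arrays. Vcan fell by 0.84 ± 0.27 with an adjusted p of 0.04, and without the arrays in doubt the difference was -1.14 with an adjusted p of 0.00408. Both Bgn and Vcan lost their calls with the epithelial and adipocyte scores as covariates, and Dcn, Bgn, Vcan and Fbln1 did after centring on the median, at adjusted p of 0.0818, 0.123, 0.0509 and 0.0607.

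Other glycoproteins called were Tnxb and Fbln1. Tnxb (probe set 10444459), the gene of tenascin-X of loose connective tissue, read 8.61, 8.95, 9.03 and 8.93 in WT and 7.84, 7.94, 8.34 and 8.13 in KO and fell by 0.82 ± 0.25 with an adjusted p of 0.0289. Fbln1 (probe set 10425945), the gene of the elastic fibre protein fibulin-1, read 8.57, 8.44, 8.63 and 8.64 in WT and 8.04, 7.71, 7.97 and 7.78 in KO and fell by 0.69 ± 0.21 with an adjusted p of 0.031. Of the 9 calls at this stage, those of Tnxb, Fbln1, Bgn and Vcan were lost with any of 5 or 6 single arrays left out. Loxl1 lost its call without KO P15 replicate 2 or 4, at adjusted p of 0.0573 and 0.0529, and Dcn without KO P15 replicate 4, at 0.078. The number called was 3 without KO P15 replicate 4, 4 without KO P15 replicate 2, and 5 without WT P15 replicate 3 or 4. Shares of all genes called with these arrays left out are not given here.

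Fibroblast markers, none of which is among the 34 genes, differed at this stage: 5 of 10 fell, with a score of -1.17 to -0.86 in KO and -0.45 to -0.30 in WT. Of all genes tested 4.33% fell and 6.78% rose here. The white adipocyte score ran from -0.70 to -0.27 in KO and -0.91 to -0.57 in WT, with 4 of 11 markers higher, and the epithelial score from 0.35 to 0.43 in KO and 0.27 to 0.50 in WT, with none called. Endothelial scores overlapped, at -0.35 to -0.24 in KO and -0.41 to -0.15 in WT. With the epithelial and adipocyte scores as covariates 12 of the 34 genes were called, all lower, among them Fn1, Hmcn1, Fbln1, Nid1, Loxl1 and Dcn of the 9. The share of all genes called in that fit is not given here. The part of the fibroblast markers in the matrix gene differences was not tested.

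**Figure D5:**
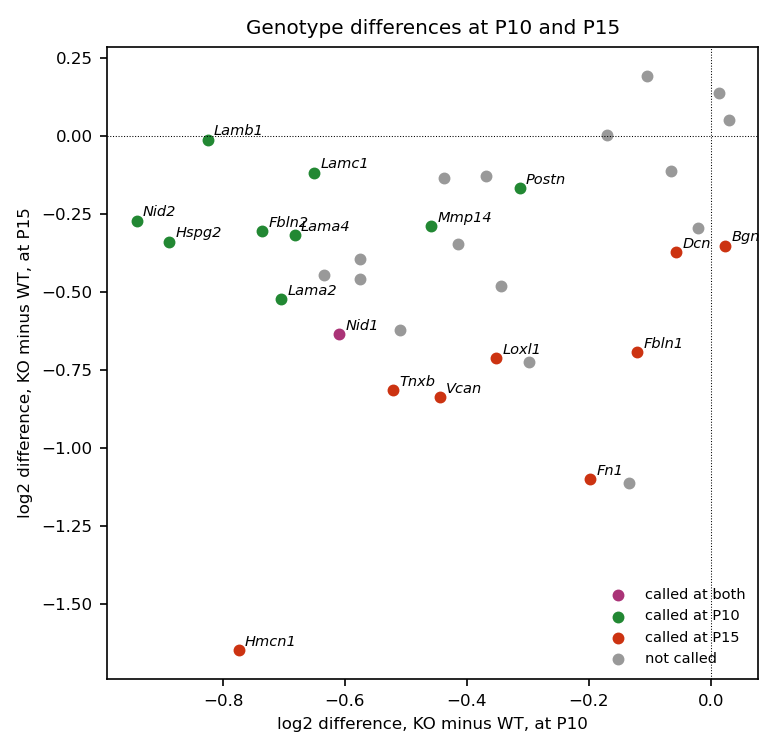
Log2 difference, KO minus WT, at P10 (horizontal) and P15 (vertical) for the 34 genes, coloured by the stage at which limma called them. Laminins, nidogens, Hspg2 and Fbln2 lie to the left, with Lamb1 at -0.83 and -0.01, and Fn1 lies low, at -0.20 and -1.10, with Nid1 alone called at both.

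Across stages, the F test for a genotype difference that varied with stage was passed by 15 of the 34 genes (18.0% of all genes): Mmp14, Hmcn1, Fn1, Lamb1, Postn, Vcan, Nid1, Nid2, Hspg2, Thbs2, Lama2, Lamc1, Lum, Lama4 and Bgn. All 4 laminins were among them, with adjusted p from 0.00354 for Lamb1 to 0.0452 for Lama4, and neither crosslinker was. The number passing was 5 without the arrays in doubt and 5 with lymphocyte and muscle scores as covariates. What share of all genes passed in either fit is not given here. The unweighted mean of the 5 genotype differences was below 0 for 32 of the 34 genes and called for 6, where 2.43% of all genes were called, 1.13% lower and 1.30% higher. These were Nid1 (-0.30 ± 0.06), Hmcn1 (-0.47 ± 0.13), Fbln5 (-0.34 ± 0.09), Fbln2 (-0.27 ± 0.07), Hspg2 (-0.26 ± 0.07) and Lama4 (-0.23 ± 0.06), with adjusted p of 0.00887, 0.0427, 0.0345, 0.0333, 0.0349 and 0.0478 in limma. Fbln5 encodes fibulin-5, which organises elastic fibres, and was called in no single stage. It came nearest at P10, where it read 9.45, 9.64 and 9.46 in WT and 9.36, 8.53 and 8.93 in KO, with an adjusted p of 0.0584. Lum, the gene of the small leucine-rich proteoglycan lumican, passed the F test and was likewise called in no single stage: it differed by 0.51 at P0, -0.52 at P3 and -0.63 at P10, where it read 10.96, 11.05 and 10.92 in WT and 10.76, 10.05 and 10.21 in KO. Only Nid1 was called whichever single array was left out, and without the arrays in doubt none of the 6 was called, Nid1 having an adjusted p of 0.0871. Hmcn1 as the mean of its 77 probe sets had a difference of -0.19 with an adjusted p of 0.346.

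Over pregnancy in WT at most 6 of the 34 genes were called at a stage up to day 10, and 14 fell at day 15. All contrasts with P0 of a genotype share its P0 arrays. At P3 2 of the 34 genes rose and 2 fell, where 18.1% of all genes were called, 11.6% higher and 6.50% lower. After centring on the median 2 rose and 5 fell, where 3552 of the 16865 genes tested were called. At P7 6 rose and none fell (29.3% of all genes, 15.5% higher and 13.8% lower), and at P10 2 rose and none fell (21.4%, 11.7% higher and 9.71% lower). At P15 1 rose and 14 fell, where 48.8% of all genes were called, 21.6% higher and 27.3% lower. By class the 14 were 6 of 14 glycoproteins, both crosslinkers, 3 of 4 laminins and 3 of 7 proteases and inhibitors, with no proteoglycan.

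Fmod was the gene that rose. Fibromodulin binds collagen fibrils and regulates their assembly. Its probe set (10349947) read 6.92, 7.81, 7.43 and 7.60 in WT P0, fell to 6.30, 7.20 and 6.22 at P3, and rose to 9.09, 8.53, 8.31 and 8.44 at P7. It then read 8.55, 9.41 and 9.52 at P10 and 9.50, 9.63, 9.27 and 9.53 at P15. The differences from P0 were -0.87 ± 0.24, 1.15 ± 0.22, 1.72 ± 0.24 and 2.04 ± 0.22, with adjusted p of 0.0108, 0.000358, 1.78e-05 and 9.17e-09 in limma. In KO the same steps gave -0.91, 1.14, 1.15 and 1.72, all called, and the F test of a genotype difference between stages had an adjusted p of 0.524 for it. Every array from P7 on lay above every P0 and P3 array in both genotypes.

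Among the other genes that rose in WT, Vcan reached 1.36 ± 0.27 at P7, with an adjusted p of 0.000482, and Thbs1 (probe set 10474700), the gene of thrombospondin-1, an activator of latent TGF-β, reached 0.98 ± 0.36, with an adjusted p of 0.0398. Thbs1 at P7 read 11.55, 11.51, 11.75 and 11.55, all within the range of the P0 arrays, which read 9.64, 12.27, 10.86 and 9.66. Postn, Lum and Mmp2 rose at P7 too, by 0.45, 0.58 and 0.52, and Nid2 at P10, by 0.69. No crosslinker and no laminin rose at any stage.

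The largest falls in WT came at day 15. Thbs2 read 9.33, 9.20, 9.73 and 9.59, all below its P0 arrays and fell by 1.17 ± 0.25 with an adjusted p of 0.00026. Timp1 (probe set 10598976) read 6.72, 7.24, 6.88 and 7.31 against 7.77, 10.27, 8.22 and 7.63 at P0 and fell by 1.44 ± 0.40 with an adjusted p of 0.00403. Lama4 read 9.82, 9.93, 9.93 and 9.81 against 10.47, 10.83, 10.67 and 10.26 and fell by 0.68 ± 0.13 with an adjusted p of 8e-05. Lox (probe set 10458894) fell by 0.68 ± 0.25 and Loxl1 fell by 0.68 ± 0.19, with adjusted p of 0.0262 and 0.00468. With epithelial and adipocyte scores as covariates 5 of the 34 genes were called at this step, 3 higher and 2 lower. Those scores ran from -0.81 to 0.49 and 0.28 to 0.55 in WT P0 and from 0.27 to 0.50 and -0.91 to -0.57 in WT P15. As the share of all genes called with these covariates is not given here, the count of 5 is not by itself a result about the 34 genes.

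In KO calls against P0 were made at each stage. At P3 20 of the 34 genes fell and none rose, where 18.8% of all genes were called, 7.80% higher and 11.0% lower, and the median difference from P0 was -0.67. All 34 lay below 0. Without KO P3 replicate 1, the muscle-rich array, 10 were called, and 11 without the arrays in doubt. At P7 1 rose and 5 fell (16.2% of all genes called, 7.84% higher and 8.34% lower). At P10 1 rose and 18 fell (30.7%, 14.4% higher and 16.3% lower), and at P15 1 rose and 28 fell (41.3%, 19.5% higher and 21.8% lower). The 1 that rose was Fmod at each of these stages. At P10 the number called was 6 without the arrays in doubt, 5 with lymphocyte and muscle scores as covariates and 8 with epithelial and adipocyte scores. Shares of all genes called with arrays left out or with covariates are not given here.

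By day 15 in KO the falls took in every class: 10 of 14 glycoproteins, both crosslinkers, 6 of 7 proteoglycans, all 4 laminins, and 6 of 7 proteases and inhibitors. Thbs2 fell most, by 2.50 ± 0.25 with an adjusted p of 2.37e-09, to 8.93, 8.68, 8.70 and 8.63. Timp1 fell by 2.11 ± 0.40 and Vcan fell by 2.01 ± 0.27, with adjusted p of 8.63e-05 and 4.75e-07. Mmp14 fell by 1.55 ± 0.14 with an adjusted p of 2.67e-10. Of the 34 genes 5 were not called: Thbs1, Tnc, Eln, Nid2 and Mmp11. Tnc had a difference of 1.03 ± 0.45 with an adjusted p of 0.0672, and in WT of 1.01 ± 0.45 with an adjusted p of 0.0653. In KO it read 8.92, 8.54, 8.52 and 8.53 at P0 and 9.58, 9.61, 9.61 and 9.85 at P15, which do not overlap. The WT P15 arrays, at 9.27 to 9.73, lay above every WT P0 array but replicate 2, at 11.16. That array, in a group with an SD of 1.78, widens the spread shared by all contrasts of Tnc.

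Among the proteases and their inhibitors only Mmp14 was called in a genotype contrast. Mmp2, the gelatinase, read 11.76, 11.75 and 11.77 in WT P10 and 11.46, 11.35 and 11.44 in KO P10, which do not overlap, with a difference of -0.34 ± 0.23 and an adjusted p of 0.324. At P15 it read 10.96, 11.19, 11.23 and 11.11 in WT and 10.71, 10.57, 10.79 and 10.49 in KO, with a difference of -0.48 ± 0.20 and an adjusted p of 0.121. Mmp3, or stromelysin-1, differed by -0.10 to 0.22 over the 5 stages, and Mmp11, a stromelysin of stromal cells, by -0.17 to 0.03. Timp2, the inhibitor that also takes part in MMP2 activation, differed by -0.29 to 0.29, and Timp3, which binds to the matrix, by -0.62 to 0.11. Mmp11 and Timp2 were the genes of the 34 that passed neither F test over stages.

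A wider list of 75 other matrix and remodelling genes, of which 68 were tested, was read in the same contrasts. At P0 5 of the 68 rose in KO, Frem1, Has2, Adamts18, Tgm2 and Adamts4, by 1.31, 1.39, 0.87, 0.60 and 0.90. Frem1 encodes a basement membrane protein of epithelial attachment, Has2 a hyaluronan synthase, Adamts4 an aggrecanase and Tgm2 a crosslinking transglutaminase. At P3 1 fell, Frem1 by 1.36, and none did at P7. At P10 2 rose and 14 fell, with the smallest p for Ltbp3, Lamb2, Adamts12, Frem1 and Srgn, at -0.73, -0.59, -0.99, -1.11 and 0.67. At P15 7 fell, with the smallest p for Mfap2, Efemp1, Mfap5, Ecm1 and Frem1, at -0.93, -0.87, -0.89, -0.64 and -0.66. In the day 3 response 7 were lower, with the smallest p for Frem1 (-2.67), Adamts4 (-1.78), Has2 (-1.85), Emilin1 (-0.83) and Adamts18 (-1.14). In the mean over stages Frem1, Adam12 and Lamb2 were lower, by 0.43, 0.27 and 0.18. The medians of the 68 genes were 0.11, -0.09, -0.03, -0.29 and -0.12 from P0 to P15. Those of the 17 collagen genes were 0.15, -0.41, -0.03, -0.55 and -0.35, and 12 and 6 of them fell at P10 and P15.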

How the data were processed

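The deposited table holds log2 intensities of 34760 probe sets on 37 arrays, from 2.10 to 13.71. The submitters' processing notes name the affy package. How background and normalisation were handled is not given in the sources used here. Probe sets were named from GEO's platform annotation: 21640 had 1 symbol, 1321 several and 11799 none listed. A gene was read from its brightest probe set, by the mean over the arrays, which gave 19937 genes, 954 of them with more than 1 probe set. A gene was tested where it exceeded the 25th percentile of all values (4.96) in at least 3 arrays, which left out 3072 genes.

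Group means were fitted with limma 3.58.1 in R 4.3.3 over all 10 groups, with no covariate, and p-values were adjusted over the 16865 genes tested. The alternatives were no filter, the second brightest probe set, quantile normalisation, centring on the median, a trended robust prior, array weights, the 2 pairs of cell marker scores as covariates, a replicate block, the groups compared alone, and leaving out the arrays in doubt or each array in turn. The scripts were tested on simulated data. The members and gene lists were chosen with earlier results of these data known. An array was in doubt where its lymphocyte or muscle score exceeded the median of the 37 arrays by over 1, or where Ptpn1 went against the label.

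Given with array values are the genes called in a genotype contrast and, in each class, the gene with the largest called rise and fall from P0 in WT. Of the other matrix genes, up to 5 with the smallest p were named per genotype contrast. The windows printed were chosen after values were seen. The replicate numbers were not used as pairs in the main fit. Deviations of same-numbered samples correlated between -0.52 and 0.38, above 0.1 in 9 of 18 pairs. Differently numbered samples were not compared, so whether the numbers pair the samples cannot be told from these values. No arrays held identical values.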

Additional observations from a re-analysis of the deposited data

Results flagged for a closer look

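Among 204 sets of values of 1 gene in 1 group with at least 4 arrays, 14 held an array far from the others, where chance alone gives about 10.2 at 1 in 20. WT P0 replicate 2 accounted for 4 of them: Tnc at 11.16 (next 7.93), Fbln1 at 8.38 (next 9.37), Dcn at 12.25 (next 12.73) and Lum at 9.81 (next 10.90). In the P15 groups these were Fn1 at 11.49 in the array labelled KO replicate 3 (next 10.66), Tnc at 9.85 in KO replicate 4 (next 9.61) and Sparc at 12.87 in KO replicate 1 (next 12.77). In WT P7 they were Thbs1 at 11.75 and Eln at 8.92 in replicate 3 (next 11.55 and 8.80), Dcn at 12.67 in replicate 1 (next 12.73) and Lama2 at 10.21 in replicate 4 (next 10.44). The rest were Tnc at 8.92 in KO P0 replicate 1 (next 8.54), Eln at 8.19 in KO P0 replicate 4 (next 8.76) and Fmod at 8.44 in KO P7 replicate 4 (next 8.79).

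The response from P0 to P3 differed between the genotypes in limma for Mmp14 (adjusted p of 0.00195), Postn (0.00436), Vcan (0.0114), Thbs2 (0.0126) and Fn1 (0.0435), and was lower in KO for each. The genotype difference varied over the 5 stages in limma's F test for Mmp14 (adjusted p of 0.00117), Hmcn1 (0.00275), Fn1 (0.00291), Lamb1 (0.00354), Postn (0.00437), Vcan (0.00602), Nid1 (0.0090) and Nid2 (0.0106). It did so too for Hspg2 (adjusted p of 0.0127), Thbs2 (0.0139), Lama2 (0.0156), Lamc1 (0.0202), Lum (0.0314), Lama4 (0.0452) and Bgn (0.0485).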

How the results depend on the processing

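The number of the 34 genes called stayed within 1.5 times its main value in 161 combinations of a contrast and an alternative and moved further in 35. No called difference between the genotypes changed sign under the alternatives run. The signs of the differences from P0 and of uncalled differences were not followed. The second brightest probe set gave other values only for Hmcn1, since 33 of the 34 genes have 1 probe set. Centring on the median gave 3 calls at P0, 5 at P15 and 7 for WT P3 against P0. It took the median of all genes from 0.01 to 0.10 at P15, -0.03 to -0.17 at P10, -0.06 to -0.25 for WT P15 against P0, -0.05 to -0.21 for KO P10 against P0 and 0.01 to -0.13 for KO P15 against P0. Array weights gave 3 at P0, 19 at P10, 20 at P15, 20 in the mean over stages, 25 in the F test of genotype by stage, and 8 for WT P3 and 8 for WT P10 against P0. Lymphocyte and muscle scores gave 0 at P10, 1 in the mean, 2 in the day 3 response, 5 in the F test, 11 for WT P3, 4 for WT P10, 11 for KO P3 and 5 for KO P10 against P0. Epithelial and adipocyte scores gave 1 at P3, 0 at P10, 5 for WT P15 and 8 for KO P10 against P0. Without the arrays in doubt there were 0 at P10, 0 in the mean, 3 in the day 3 response, 5 in the F test, 10 for WT P3, 11 for KO P3 and 6 for KO P10 against P0. The groups compared alone gave 0 at P0, 0 at P10, 18 at P15, 0 in the day 3 response, 1 for WT P3 and 8 for KO P3 against P0. The causes were not tested. These counts are given without the share of all genes called under the same alternative, so a higher or lower count is not by itself a result about the 34 genes.

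With each array left out in turn, the calls ranged from 0 to 6 at P0, 0 to 4 at P3, 0 to 0 at P7, 6 to 12 at P10 and 3 to 12 at P15. They ranged from 1 (without WT P3 replicate 2, KO P7 replicate 3, or KO P10 replicate 2 or 3) to 11 (without KO P10 replicate 1) in the mean, 2 to 10 in the day 3 response and 10 to 19 in the F test. Against P0 they ranged in WT from 2 to 9, 3 to 8, 2 to 5 and 10 to 15, and in KO from 10 to 24, 4 to 8, 16 to 19 and 26 to 31, for P3 to P15. The F tests over stages ranged from 21 to 27 in WT and 30 to 33 in KO. These counts too are given without the share of all genes called in the same fit.

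The replicate block gave 1, 0, 0, 9 and 10 calls from P0 to P15, 4 in the mean, 5 in the day 3 response and 14 in the F test, and no count moved by over 1.5 times. At P10 only 1 of 3 KO arrays was free of doubt, which limits what that stage can show, and the number of arrays limits the precision throughout.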

Other observations

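Loxl2, a lysyl oxidase relative that also crosslinks collagen, was read only by probe set 10416215, which the annotation gives to Gm21451 as well, so its level and that of the second symbol cannot be told apart. The probe set read 8.92 ± 0.40 in WT P0 and 9.35 ± 0.38 in KO P0 (SD, n = 4 and 4). At P3 it read 9.03 ± 0.15 and 8.52 ± 0.38 (SD, n = 3 and 3), and at P7 8.98 ± 0.08 and 8.83 ± 0.24 (SD, n = 4 and 5). At P10 it read 9.12 ± 0.10 and 8.35 ± 0.23 (SD, n = 3 and 3), and at P15 8.08 ± 0.14 and 7.62 ± 0.22 (SD, n = 4 and 4). Its mean lay higher in KO than in WT at P0 and lower at the other 4 stages, and no test was applied to it.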
